A study of Mus musculus with 18 samples.

Results

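Macrophages clear dying cells and aged red cells, and they handle the iron and heme that this work releases. Here 9 genes of iron and heme handling were followed in bone marrow-derived macrophages (BMDMs): *Fth1*, *Ftl1*, *Hmox1*, *Blvrb*, *Slc48a1*, *Slc40a1*, *Slc11a1*, *Tfrc* and *Lcn2*. They were taken by gene name from a table of 20615 genes, each had 1 row of its own name, and all 9 passed the filter on low counts that left 15789 genes for testing. The 18 RNA-seq samples fell into 6 groups of 3. BMDMs of C57BL/6 (B6) mice and of C57BL/6.NOD-Aec1Aec2 mice (SjSS below) were untreated (control), were given apoptotic cells (AC) or were given CpG. SjSS mice are a Sjögren's syndrome model that carries NOD-derived *Idd3* (*Aec1*) and *Idd5* (*Aec2*) intervals in a B6 genome, so B6 is its background strain. The donors were females of 7 to 12 weeks, and all BMDMs were grown with L929 cell supernatant, a source of M-CSF. The ACs were thymocytes killed with dexamethasone and added at 5 per BMDM for 2 h, followed by washing and 3 h more in culture by the labels, and CpG was given at 1 µM for 6 h. CpG is an oligonucleotide ligand of TLR9. None of these 18 samples received dexamethasone alone or live thymocytes, and the times of the AC and CpG groups differ. The paper describes thymi taken from both B6 and SjSS mice. Which thymocytes the BMDMs of each strain received for RNA-seq is not stated. A strain difference with ACs may therefore include a difference in the ACs, and the 2 cannot be told apart.

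Heme taken in with red cells or dying cells is moved out of the phagolysosome by the transporter encoded by *Slc48a1* (HRG1). The enzyme heme oxygenase 1 (*Hmox1*) opens the heme ring to give biliverdin, carbon monoxide and iron, and biliverdin reductase B (*Blvrb*) belongs to the reductases that act on biliverdin and flavins. The freed iron is stored in ferritin, a shell of heavy (*Fth1*) and light (*Ftl1*) chains, or leaves through ferroportin (*Slc40a1*), the known iron exporter of mammalian cells. Transferrin receptor 1 (*Tfrc*) brings iron in from serum, the NRAMP1 transporter (*Slc11a1*) moves divalent metal out of the phagosome, and lipocalin 2 (*Lcn2*) binds bacterial siderophores and so keeps iron from microbes. Part of this control acts after transcription. When iron is scarce, the IRP proteins bind iron-responsive elements (IREs), short hairpins in the UTRs, and hold back translation of ferritin and ferroportin while they protect *Tfrc* mRNA from decay. An mRNA level therefore shows only part of how these proteins are set.

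The hairpins are shown because they mark which members carry this second layer of control, which read counts do not measure. GENCODE M21 transcripts (GRCm38, the assembly also called mm10) were searched on the sense strand for a C, 5 bases of any kind, CAGTG and 1 base more. The 5 bases after the first C had to pair with the 5 bases after the core, with at most 1 mismatch and with GT pairs allowed. A match lay in the 5′ UTR of *Fth1*, *Ftl1* and *Slc40a1*, in an exon in each case, and 4 lay in the 3′ UTR of *Tfrc*, in exonic sequence. Capitals mark the loop, and the sequences run 5′ to 3′ on the strand of the gene:
Fth1 5′ UTR, chr19:9982732-9982760, plus strand: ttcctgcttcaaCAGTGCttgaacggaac
Ftl1 5′ UTR, chr7:45459779-45459807, minus strand: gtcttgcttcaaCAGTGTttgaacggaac
Slc40a1 5′ UTR, chr1:45925465-45925493, minus strand: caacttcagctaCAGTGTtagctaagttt
Tfrc 3′ UTR, chr16:32631219-32631247, plus strand: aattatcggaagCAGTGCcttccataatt
Tfrc 3′ UTR, chr16:32631598-32631626, plus strand: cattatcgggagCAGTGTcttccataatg
Tfrc 3′ UTR, chr16:32631663-32631691, plus strand: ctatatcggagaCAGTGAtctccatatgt
Tfrc 3′ UTR, chr16:32631710-32631738, plus strand: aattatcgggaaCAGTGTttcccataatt
None of the other 5 members had a match in a UTR. The same search matched a 5′ UTR in 175 of 21745 protein-coding genes (0.805%) and a 3′ UTR in 856 of them (3.94%), and a match describes letters, not binding. The 3 members with a hairpin in the 5′ UTR did not move together: *Fth1* rose with both treatments, *Slc40a1* fell with both, and *Ftl1* rose only with ACs in SjSS BMDMs among the 4 treatment responses, as described below. *Tfrc*, with its hairpins in the 3′ UTR, passed the threshold in none of those 4 responses.

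Samples held 30688336 to 57139662 estimated counts on genes (median 47912525), and *Lcn2* outside the CpG groups rests on 9 to 122 of them in a sample. Levels are given as CPM, counts relative to a library total that was scaled by edgeR's TMM method, and differences as log2 fold changes with their standard error (SE). The TMM factors were 0.833 to 0.838 in AC treated and 1.10 to 1.13 in control SjSS samples (B6: 1.02 to 1.04 and 1.06 to 1.09). Relative to shares of all counts, this raises every gene in the AC response of SjSS, so small rises there depend on it. As unscaled shares, *Ftl1*, *Slc11a1* and *Blvrb* overlapped between these SjSS groups. Significance means an adjusted p under 0.05 in edgeR's quasi-likelihood test over all 15789 genes with Benjamini-Hochberg adjustment, and a gene was called where the log2 fold change was also over 1.3 in size. BMDMs of each strain came from 3 mice, so samples of different treatments may share a mouse. The labels do not say whether the sample number marks it, and p-values therefore measure the spread between samples treated as separate. In bulk RNA, fewer cells of a type and less RNA in each cell cannot be told apart. The 9 macrophage markers were all present, with a summed level of 15600 to 23900 CPM over the samples. The summed level of 15 T-lineage markers was 8.26 to 10.1 CPM in control B6 and 4.96 to 5.88 CPM in AC treated B6 BMDMs, against 10.2 to 11.9 and 13.9 to 18.6 CPM in SjSS, and most of it was *Cd4*. *Rag1*, a defining gene of immature thymocytes, had 24 counts over the AC treated B6 samples, 3 over the AC treated SjSS samples and 0 in the other groups. Over the AC treated samples, *Dntt* (18 in B6, 1 in SjSS) and *Themis* (10 and 0) likewise had more counts in B6. Each had at most 5 counts over any group without ACs. Some other markers went the opposite way. *Lck* had 39 counts over the AC treated B6 samples and 86 over the AC treated SjSS samples. *Cd3g* (8 and 14), *Trac* (4 and 7) and *Cd4* (529 and 1830) were also higher in SjSS. *Lck* (21) and *Cd3g* (4) had fewer counts over the controls of each strain. *Trac* and *Cd4* did not mark the added cells alone, with 8 and 1482 counts over the control SjSS samples. *Trac* also reached 17 counts with CpG in B6. The other listed markers had more counts in AC treated B6 samples. What remained of thymocyte RNA may differ between the AC treated groups. Its part in the AC results, strain differences with ACs among them, was not tested. The erythroid markers in the table summed to at most 0.303 CPM in any sample, with 3 of 9 present.

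Per kilobase of exon, the ferritin genes stood near the top of all genes at every condition. *Fth1* was first or second of 14511 ranked genes in each group, at 9000 to 14200 CPM per kilobase, and *Ftl1* ranked from 5 to 7. The *Ftl1* row held 39.5 to 48.2% of its counts summed with the copy *Ftl1-ps1*, so its place below *Fth1* depends on how reads were divided. *Hmox1* ranked 28 in control B6 and 34 in control SjSS BMDMs, and 8 and 9 with ACs. *Slc11a1*, *Slc48a1* and *Blvrb* lay at 147 to 325 CPM per kilobase, *Slc40a1* at 31.0 to 140, and *Tfrc* at 16.7 to 25.4. *Lcn2* covered the widest range of the 9, from 0.270 CPM per kilobase in control SjSS to 90.7 in CpG treated B6 BMDMs. The plot of the 9 genes by sample shows these levels without the length correction.

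**Figure D1:**
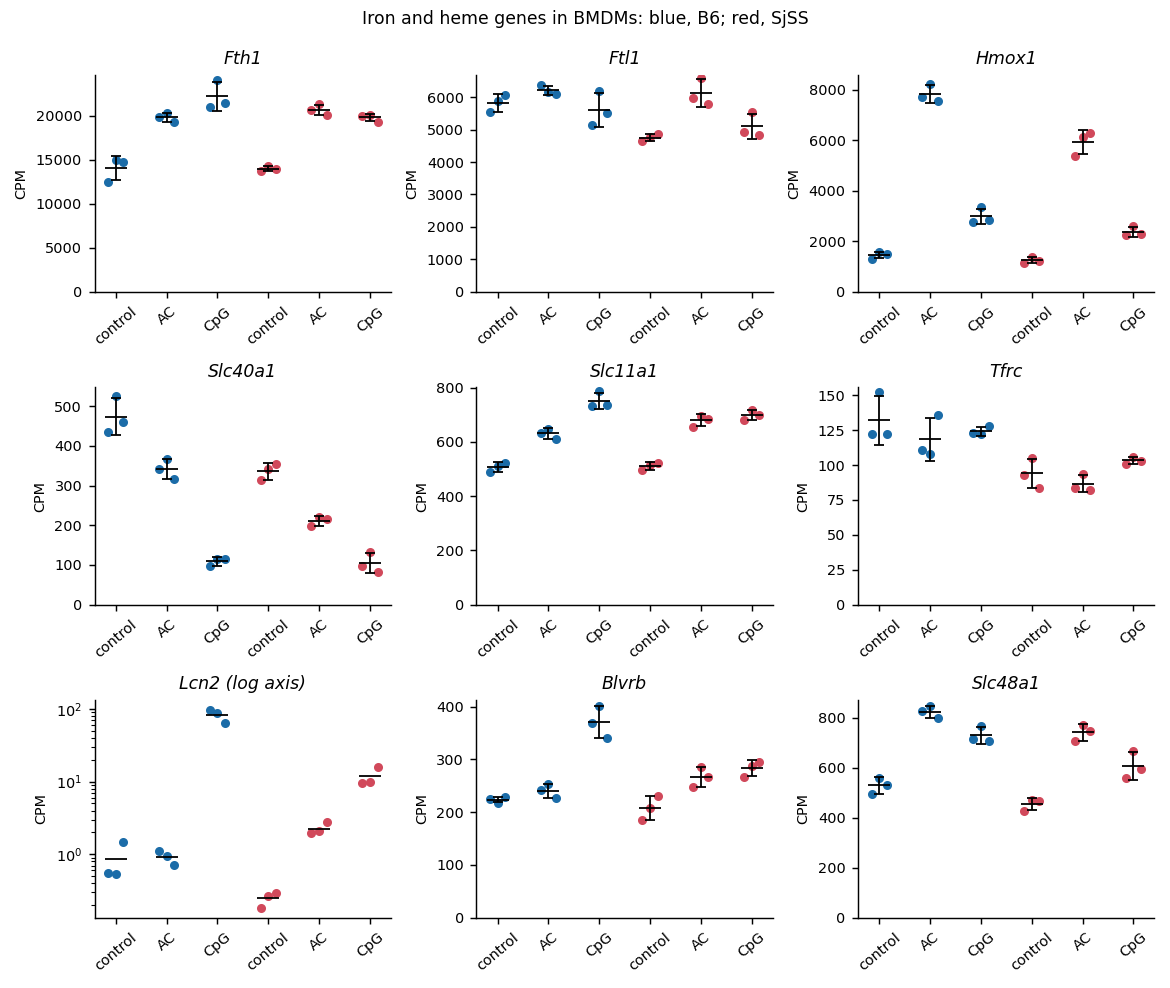
CPM of each member in every sample, with 3 points for each of the 6 groups (blue, B6; red, SjSS). Black bars are the group mean and, except for *Lcn2* on its log axis, ± SD. *Hmox1* was highest with ACs in both strains (5370 to 8250 CPM), *Slc40a1* was lowest with CpG (82.8 to 132 CPM), and *Lcn2* spanned 0.184 to 96.4 CPM.

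The question of the treatment comparisons is how each strain responds to ACs and, as an inflammatory comparison, to CpG. With ACs, 1 of the 9 members was called in B6 BMDMs, *Hmox1*, where 4.47% of all tested genes were called. In SjSS BMDMs 2 were called with ACs, *Hmox1* and *Lcn2*, against 12.9% of all genes. Without the fold threshold, 4 members rose with ACs in B6 (20.0% of all genes did) and 1 fell (18.3%), while 7 rose in SjSS (28.6%) and 1 fell (29.4%). With CpG, *Lcn2* was called higher and *Slc40a1* lower in both strains, that is 2 of 9 members, where 12.7% of all genes were called in B6 and 9.26% in SjSS. By significance alone 6 members rose with CpG (28.1% of all genes in B6, 27.8% in SjSS) and 1 fell (29.8% and 26.4%). The median log2 fold change of the 9 members was 0.11 with ACs in B6, 0.41 with ACs in SjSS, 0.56 with CpG in B6 and 0.45 with CpG in SjSS, and over all tested genes it was 0.00, -0.02, -0.04 and -0.01. The AC and CpG responses of a strain share their control samples.

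**Figure D2:**
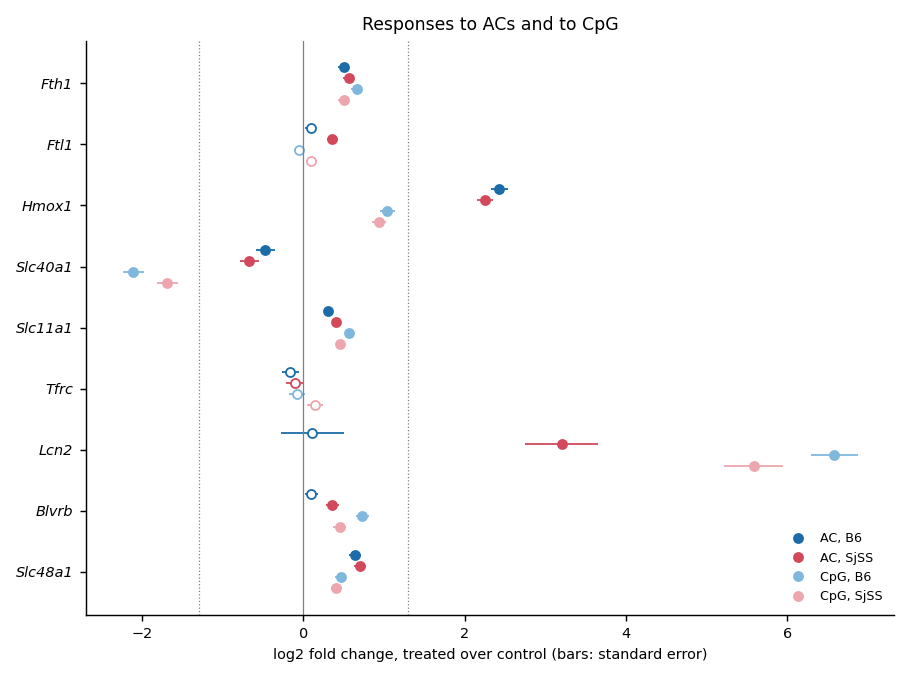
Log2 fold change of each member against the control of the same strain, for ACs and CpG in B6 and SjSS. Bars are SE, filled points had an adjusted p under 0.05, and dotted lines mark 1.3 and -1.3. *Hmox1* passed the upper line with ACs only, *Slc40a1* passed the lower line with CpG only, and *Lcn2* rose by 6.58 and 5.58 with CpG.

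*Hmox1* (chromosome 8, 75093621 to 75100590 in the deposited table) had the largest response to ACs of the members in B6. Its levels were 1310, 1560 and 1500 CPM in control B6 and 7710, 8250 and 7550 CPM in AC treated B6 BMDMs. With CpG they were 2770, 3340 and 2850 CPM. The 3 groups did not overlap, with AC above CpG above control. *Hmox1* was 5.37-fold higher with ACs in B6 (log2 fold change 2.43 ± 0.10 SE, adjusted p = 1.95e-12 in edgeR) and 2.05-fold higher with CpG (1.04 ± 0.09, adjusted p = 1.4e-08). In SjSS BMDMs the levels were 1140, 1380 and 1220 CPM in control, 5370, 6150 and 6280 CPM with ACs and 2240, 2610 and 2300 CPM with CpG, in the same order and again without overlap. The rise was 4.77-fold with ACs (2.25 ± 0.10, adjusted p = 2.46e-13) and 1.92-fold with CpG (0.94 ± 0.09, adjusted p = 7.2e-08). Transcripts of this one gene made up 0.773 to 0.843% of all counts in AC treated B6 samples and 0.450 to 0.523% in AC treated SjSS samples, against 0.125 to 0.166% in the controls of both strains. AC against CpG differed by 1.39 ± 0.09 in B6 (adjusted p = 5.44e-10) and by 1.32 ± 0.09 in SjSS (adjusted p = 8.92e-10). The SjSS value lay close to the fold threshold and went under it at 1.28 with upper-quartile scaling, and at 1.27 to 1.29 when AC replicate 2 or 3 or CpG replicate 1 or 3 of SjSS was left out.

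The other heme genes moved less. *Slc48a1* (chromosome 15, 97784355 to 97792693), the phagolysosomal heme transporter, read 495, 561 and 533 CPM in control B6, 827, 849 and 800 CPM with ACs and 714, 768 and 708 CPM with CpG. In SjSS it read 429, 473 and 467 CPM in control, 706, 773 and 748 CPM with ACs and 559, 667 and 597 CPM with CpG. The groups of each strain did not overlap, with AC highest and control lowest. The log2 fold changes were 0.64 ± 0.07 with ACs in B6 (adjusted p = 4.62e-07), 0.70 ± 0.07 with ACs in SjSS (adjusted p = 3.62e-08), 0.46 ± 0.07 with CpG in B6 (adjusted p = 7.95e-06) and 0.41 ± 0.07 with CpG in SjSS (adjusted p = 3.62e-05). AC exceeded CpG by 0.18 ± 0.07 in B6 (adjusted p = 0.0382), which no longer passed without AC replicate 1 or 2 or CpG replicate 1 or 3 of B6 (0.15 to 0.18, adjusted p = 0.08 to 0.137), and by 0.29 ± 0.07 in SjSS (adjusted p = 0.00137). Over the 18 samples the log2 CPM of *Hmox1* and *Slc48a1* had a Pearson correlation of 0.94, and over the 6 group means it was also 0.94. The samples share the treatments, so this describes the 6 groups.

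*Blvrb* (chromosome 7, 27447978 to 27466145) followed CpG more than ACs in B6. The levels in B6 were 225, 218 and 228 CPM in control, 241, 253 and 226 CPM with ACs and 369, 401 and 340 CPM with CpG, so the AC group overlapped the control group and the CpG group stood above both. The log2 fold change was 0.10 ± 0.08 with ACs (adjusted p = 0.334) and 0.73 ± 0.08 with CpG (adjusted p = 1.61e-07). In SjSS the levels were 184, 208 and 230 CPM in control, 247, 285 and 266 CPM with ACs and 266, 288 and 295 CPM with CpG. Both treatments raised *Blvrb* there, by 0.36 ± 0.08 with ACs (adjusted p = 0.000608) and by 0.45 ± 0.08 with CpG (adjusted p = 7.17e-05), and the AC and CpG groups overlapped. AC stood below CpG in B6 by a log2 fold change of -0.62 ± 0.08 (adjusted p = 2.16e-06), and in SjSS the difference was -0.09 ± 0.08 (adjusted p = 0.351).

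Among the storage genes, by scaled CPM, the heavy chain gene rose with every treatment and the light chain gene with ACs in SjSS BMDMs. *Fth1* (chromosome 19, 9982703 to 9985093) read 12500, 15000 and 14700 CPM in control B6, 19900, 20300 and 19300 CPM with ACs and 21000, 24100 and 21500 CPM with CpG. In SjSS it read 13700, 14300 and 14000 CPM in control, 20600, 21300 and 20100 CPM with ACs and 20000, 20100 and 19300 CPM with CpG. Each treated sample lay above each control sample of its strain, and the AC and CpG groups met or overlapped only in SjSS. The log2 fold changes were 0.50 ± 0.07 (adjusted p = 1.35e-05) and 0.56 ± 0.07 (adjusted p = 1.05e-06) with ACs in B6 and SjSS, and 0.66 ± 0.07 (adjusted p = 1.22e-07) and 0.50 ± 0.07 (adjusted p = 5.42e-06) with CpG. AC against CpG gave -0.16 ± 0.07 in B6 (adjusted p = 0.0641), which passed without CpG replicate 1 (-0.20, adjusted p = 0.0359) or CpG replicate 3 (-0.19, adjusted p = 0.0476), and 0.06 ± 0.07 in SjSS (adjusted p = 0.475).

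*Ftl1* (chromosome 7, 45457944 to 45459885) is less certain, because reads of near-identical copies were divided between rows by the counting step. The row named *Ftl1-ps1* held more counts than *Ftl1* in every sample, and *Ftl1* had 39.5 to 48.2% of the 2 together. In B6 *Ftl1* read 5530, 5880 and 6060 CPM in control, 6370, 6170 and 6090 CPM with ACs and 5150, 6180 and 5520 CPM with CpG. In SjSS it read 4640, 4770 and 4860 CPM in control, 5970, 6600 and 5790 CPM with ACs and 4940, 5530 and 4820 CPM with CpG. The AC samples stood above the controls in both strains, narrowly in B6, and the CpG samples overlapped the controls. The log2 fold change passed the threshold with ACs in SjSS (0.36 ± 0.07, adjusted p = 0.000267) and was 0.09 ± 0.07 with ACs in B6 (adjusted p = 0.341), -0.05 ± 0.07 with CpG in B6 (adjusted p = 0.563) and 0.10 ± 0.07 with CpG in SjSS (adjusted p = 0.268). In SjSS *Ftl1* was higher with ACs than with CpG by 0.26 ± 0.07 (adjusted p = 0.00484). In B6 that difference was 0.15 ± 0.07 (adjusted p = 0.111) and passed at 0.22 without CpG replicate 2 (adjusted p = 0.0227), at 0.20 with upper-quartile scaling (adjusted p = 0.0391) and with the replicate block within strain (adjusted p = 0.0437). With the pseudogene rows added it was 0.18 in B6 (adjusted p = 0.0333) and 0.43 in SjSS. The *Fth1* row may also hold reads of a processed pseudogene, which its biotype names beside the protein-coding gene. The *Fth1*, *Ftl1* and *Ftl1-ps1* rows together took 2.70 to 3.56% of all counts in a sample.

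The balance of the chains was read as the log2 ratio of *Fth1* to *Ftl1* CPM. In B6 it was 1.18, 1.35 and 1.28 in control, 1.64, 1.71 and 1.67 with ACs and 2.03, 1.96 and 1.96 with CpG. In SjSS it was 1.56, 1.58 and 1.53 in control, 1.79, 1.69 and 1.80 with ACs and 2.01, 1.86 and 2.00 with CpG. The order was control, then AC, then CpG in both strains, without overlap. The ratio was higher by 0.40 with ACs and by 0.71 with CpG in B6, and by 0.20 and 0.40 in SjSS (exact two-sided permutation test, p = 0.1 for each, the smallest that 3 samples against 3 allow; 0.1 after Benjamini-Hochberg adjustment over 10 comparisons of the ratio). With *Ftl1-ps1* added to *Ftl1* the differences were 0.36 and 0.70 in B6 and 0.18 and 0.54 in SjSS. Control SjSS exceeded control B6 by 0.29 in this ratio and by 0.12 with the copy added.

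**Figure D3:**
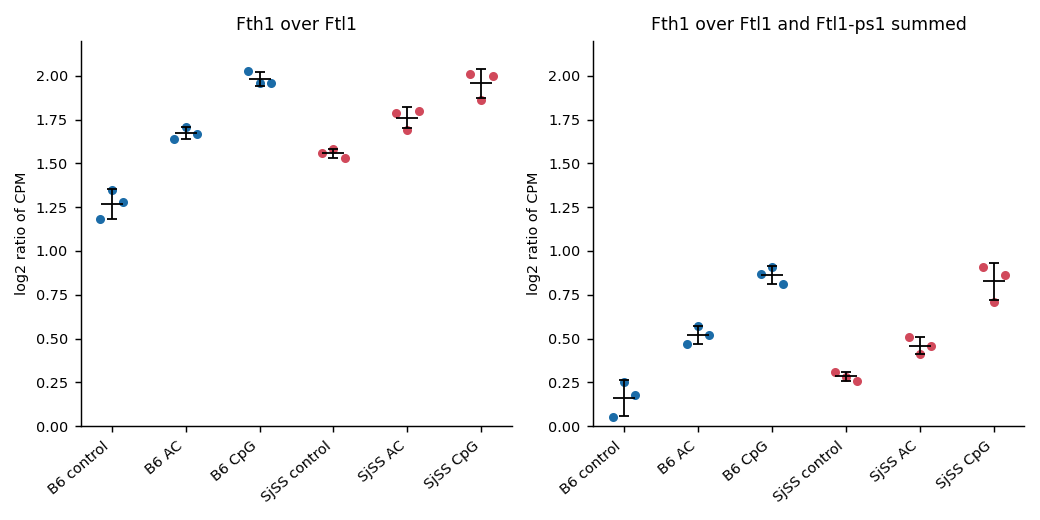
Log2 ratio of *Fth1* to *Ftl1* CPM in each sample (left) and with *Ftl1-ps1* added to *Ftl1* (right), with mean ± SD of 3 samples in black (blue, B6; red, SjSS). In both panels the groups rise from control to AC to CpG within a strain, for example from a mean of 1.27 to 1.67 to 1.98 in B6 on the left.

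*Slc40a1*, the exporter (chromosome 1, 45908068 to 45926524), fell with both treatments and most with CpG. Its levels were 435, 525 and 459 CPM in control B6, 342, 367 and 317 CPM with ACs and 96.3, 116 and 116 CPM with CpG. In SjSS they were 313, 341 and 355 CPM in control, 197, 221 and 217 CPM with ACs and 98.1, 132 and 82.8 CPM with CpG. The 3 groups of each strain did not overlap, with control highest and CpG lowest. CpG lowered it 4.32-fold in B6 (log2 fold change -2.11 ± 0.13, adjusted p = 4.47e-11) and 3.22-fold in SjSS (-1.69 ± 0.13, adjusted p = 1.29e-09). ACs lowered it 1.38-fold in B6 (-0.47 ± 0.12, adjusted p = 0.00496) and 1.59-fold in SjSS (-0.67 ± 0.12, adjusted p = 0.000113), under the fold threshold. AC stood above CpG by 1.64 ± 0.13 in B6 (adjusted p = 3.03e-09) and by 1.02 ± 0.12 in SjSS (adjusted p = 1.23e-06). Thus with CpG the exporter transcript fell while *Fth1*, the storage gene, rose, and with ACs *Hmox1* and *Fth1* rose while *Slc40a1* fell by less.

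*Lcn2* (chromosome 2, 32384633 to 32388253) was the member with the greatest response to CpG, and it responded to ACs in SjSS BMDMs. In B6 it read 0.544, 0.542 and 1.49 CPM in control (34, 26 and 84 counts), 1.11, 0.946 and 0.713 CPM with ACs (56, 50 and 32 counts) and 96.4, 88.9 and 63.5 CPM with CpG. The AC samples lay within the range of the controls, and the CpG samples stood far above both. SjSS BMDMs had 0.184, 0.266 and 0.290 CPM in control (10, 9 and 16 counts), 1.94, 2.10 and 2.74 CPM with ACs (75, 100 and 122 counts) and 9.54, 9.81 and 16.1 CPM with CpG. Here all 3 groups were apart. CpG raised *Lcn2* 95.8-fold in B6 (6.58 ± 0.29, adjusted p = 5.68e-13; 7.25 without control replicate 3, its highest control sample) and 47.8-fold in SjSS (5.58 ± 0.37, adjusted p = 2.54e-10). ACs raised it 9.18-fold in SjSS (3.20 ± 0.45, adjusted p = 5.39e-06), and the value in B6 was 0.11 ± 0.39 (adjusted p = 0.861). AC stood below CpG by -6.47 ± 0.29 in B6 (adjusted p = 3.1e-12) and by -2.38 ± 0.26 in SjSS (adjusted p = 3.34e-07).

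Because *Lcn2* is also a granule gene of neutrophils, the neutrophil markers are given beside it. Of 10 markers, 6 had rows, and their summed level was 76.4 to 91.4 CPM in control B6 and 61.8 to 77.2 CPM in CpG treated B6 BMDMs, 82.8 to 87.3 and 58.4 to 62.9 CPM in SjSS. AC treated samples summed to 35.3 to 48.7 CPM in B6 and 70.5 to 73.4 CPM in SjSS. *Mmp8* made up most of these sums. *Camp*, a granule gene, had a mean of 0.0385 CPM in control and 1.80 CPM in CpG treated B6 BMDMs, and 0.986 CPM in CpG treated SjSS BMDMs, with 0 counts in control SjSS. With ACs *Camp* had 13 counts over the 3 samples of B6 (7 in control) and 39 over those of SjSS (0.296 CPM). *S100a8* had a mean of 3.60 CPM in control and 9.41 CPM in CpG treated B6 BMDMs, against 2.78 and 4.68 CPM in SjSS, and with ACs 3.22 CPM in B6 and 2.21 CPM in SjSS. Their part in the *Lcn2* result was not tested.

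*Slc11a1* and *Tfrc* are the phagosomal and the surface import genes. *Slc11a1* (chromosome 1, 74375195 to 74386063) read 488, 512 and 524 CPM in control B6, 634, 649 and 611 CPM with ACs and 731, 786 and 737 CPM with CpG. SjSS samples had 495, 516 and 523 CPM in control, 655, 697 and 686 CPM with ACs and 680, 717 and 698 CPM with CpG. All treated samples stood above all controls, and AC and CpG were apart in B6 and overlapped in SjSS. The log2 fold changes were 0.31 ± 0.05 (adjusted p = 5.96e-05) and 0.41 ± 0.05 (adjusted p = 8.78e-07) with ACs in B6 and SjSS, and 0.56 ± 0.05 (adjusted p = 1.13e-08) and 0.45 ± 0.05 (adjusted p = 3.29e-07) with CpG. AC lay below CpG by -0.25 ± 0.05 in B6 (adjusted p = 0.000385), and the difference was -0.04 ± 0.05 in SjSS (adjusted p = 0.54).

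*Tfrc* (chromosome 16, 32608920 to 32632795) read 122, 152 and 122 CPM in control B6, 111, 108 and 136 CPM with ACs and 123, 122 and 128 CPM with CpG. The SjSS levels were 93.1, 105 and 83.8 CPM in control, 83.8, 93.9 and 82.3 CPM with ACs and 101, 106 and 103 CPM with CpG. Within each strain treated and control samples overlapped, while no SjSS sample reached the lowest B6 sample. The log2 fold changes were -0.16 ± 0.10 and -0.11 ± 0.10 with ACs in B6 and SjSS (adjusted p = 0.207 and 0.334) and -0.08 ± 0.10 and 0.14 ± 0.10 with CpG (adjusted p = 0.481 and 0.228). The AC value in B6 became -0.27 (adjusted p = 0.0393) without AC replicate 3, the highest of its group. AC against CpG was -0.25 ± 0.10 in SjSS (adjusted p = 0.0333), and it no longer passed when AC replicate 1 or 3 or any CpG replicate of SjSS was left out (-0.22 to -0.27, adjusted p = 0.0519 to 0.119). In B6 it was -0.08 ± 0.10 (adjusted p = 0.542).

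The direct comparison of the treatments called 3 members in B6 (7.11% of all genes), *Hmox1* and *Slc40a1* higher with ACs and *Lcn2* higher with CpG. In SjSS it called 2 (9.18% of all genes), *Hmox1* higher with ACs and *Lcn2* higher with CpG. By significance alone 3 members were higher (23.7% of all genes) and 3 lower (22.4%) with ACs than with CpG in B6, and 4 higher (25.7%) and 2 lower (26.5%) in SjSS. The treatments differ in time as well as in agent, and the 2 cannot be told apart.

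The strain comparisons ask whether SjSS BMDMs differ from B6 BMDMs before and after each treatment. In control BMDMs 1 member was called, *Lcn2*, lower in SjSS (2.01% of all genes were called in either direction, and 0.716% lower). By significance alone 5 members were lower in control SjSS, where 10.6% of all genes were: *Tfrc*, *Slc40a1*, *Ftl1*, *Slc48a1* and *Lcn2*. With ACs, edgeR called 0 members, where 8.93% of all genes were called, with 6 members at an unadjusted p under 0.05. By adjusted p, 3 were lower (25.5% of all genes) and 1 higher (24.0%), and DESeq2 gave 5 members past the adjusted threshold where edgeR gave 4. With CpG 1 member was called, *Lcn2*, lower in SjSS (2.61% of all genes in either direction, and 0.792% lower), and 4 were significantly lower (9.57%). DESeq2 gave 7 past the adjusted threshold there, with *Fth1* (-0.19, adjusted p = 0.0199), *Slc11a1* (-0.13, adjusted p = 0.028) and *Tfrc* (-0.29, adjusted p = 0.0197) in addition. The median log2 difference over the 9 members was -0.23 in control, -0.02 with ACs and -0.26 with CpG, beside -0.01, -0.05 and 0.01 over all tested genes.

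**Figure D4:**
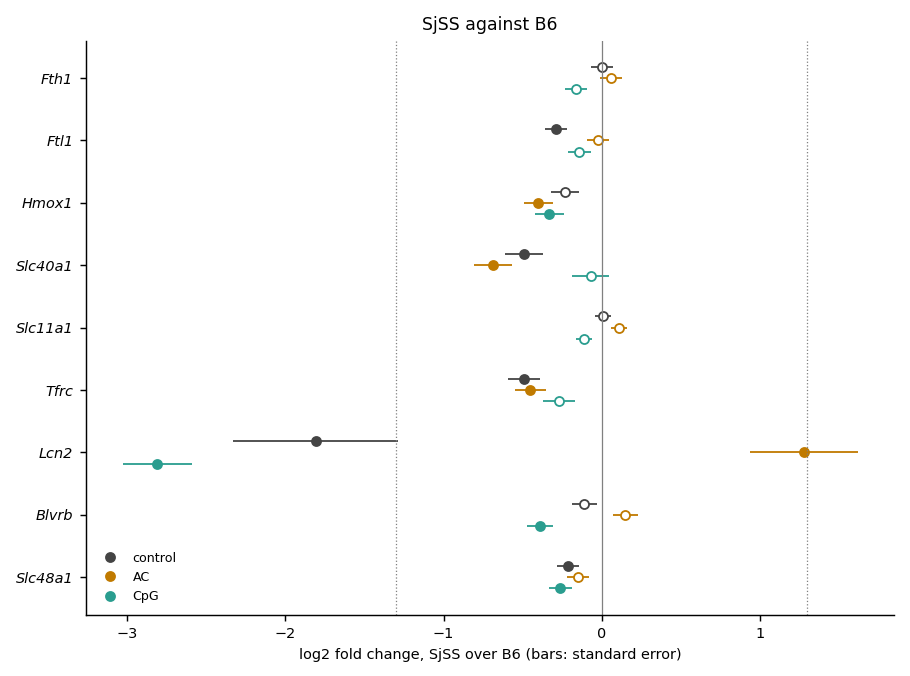
Log2 fold change of SjSS over B6 for each member in control, AC treated and CpG treated BMDMs. Bars are SE, filled points had an adjusted p under 0.05, and dotted lines mark 1.3 and -1.3. *Lcn2* lay at -1.81 in control, 1.28 with ACs and -2.81 with CpG, and all points of *Hmox1*, *Slc40a1*, *Tfrc* and *Slc48a1* lay below 0.

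*Tfrc* was 1.41-fold lower in control SjSS (log2 fold change -0.49 ± 0.10, adjusted p = 0.00139) and 1.36-fold lower with ACs (-0.45 ± 0.10, adjusted p = 0.000805). With CpG the difference was -0.27 ± 0.10 (adjusted p = 0.0574). It passed with DESeq2 size factors in edgeR (-0.29, adjusted p = 0.0348), the compared groups alone (-0.26, adjusted p = 0.0105) and DESeq2 (-0.29, adjusted p = 0.0197). It also passed with the replicate block (adjusted p = 0.0481), which joins different mice of the 2 strains by number alone. *Slc40a1* was 1.41-fold lower in control SjSS (-0.49 ± 0.12, adjusted p = 0.00831) and 1.62-fold lower with ACs (-0.69 ± 0.12, adjusted p = 0.000117), without overlap of the samples. The control difference became -0.41 (adjusted p = 0.0511) without B6 replicate 2, its highest sample. With CpG, where both strains had fallen to about the same level, the difference was -0.07 ± 0.12 (adjusted p = 0.759). The difference between the CpG responses of the strains was 0.42 ± 0.17 (adjusted p = 0.17), and 0.56 (adjusted p = 0.0329) without CpG replicate 3 of SjSS.

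*Hmox1* was lower in SjSS with ACs (-0.40 ± 0.09, adjusted p = 0.00139) and with CpG (-0.33 ± 0.09, adjusted p = 0.0174), and samples of the strains did not overlap in either. The CpG difference no longer passed without CpG replicate 2 of B6 (-0.24, adjusted p = 0.108), or CpG replicate 1 (-0.29, adjusted p = 0.0811) or 3 (-0.30, adjusted p = 0.0582) of SjSS. In control, where the samples overlapped, the difference was -0.23 ± 0.09 (adjusted p = 0.0919). It passed without B6 replicate 1 (-0.30, adjusted p = 0.0466) or SjSS replicate 2 (-0.31, adjusted p = 0.047). *Slc48a1* was lower in SjSS in control (-0.21 ± 0.07, adjusted p = 0.0318) and with CpG (-0.26 ± 0.07, adjusted p = 0.0091), and with ACs the difference was -0.15 ± 0.07 (adjusted p = 0.0673). The AC value passed with upper-quartile scaling (-0.21, adjusted p = 0.0159) and in a fit of the compared groups alone (adjusted p = 0.0288). It also passed with the replicate block (adjusted p = 0.0153), which joins different mice of the 2 strains by number alone. The control value of *Slc48a1* did not pass without B6 replicate 2 or 3 or SjSS replicate 1 or 3 (-0.17 to -0.23, adjusted p = 0.0556 to 0.151), nor did the CpG value without CpG replicate 1 of SjSS (-0.21, adjusted p = 0.0616). *Blvrb* was lower in SjSS with CpG (-0.39 ± 0.08, adjusted p = 0.00154).

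For the ferritin genes, *Fth1* differed between strains by 0.00 ± 0.07 in control (adjusted p = 0.972), 0.06 ± 0.07 with ACs (adjusted p = 0.501) and -0.16 ± 0.07 with CpG (adjusted p = 0.105). *Ftl1* was lower in control SjSS (-0.29 ± 0.07, adjusted p = 0.00854), but with its pseudogene rows added the difference was -0.13 (adjusted p = 0.21). *Lcn2* was 3.50-fold lower in control SjSS (-1.81 ± 0.52, adjusted p = 0.0196), and the call was lost without B6 replicate 3, its highest sample (-1.14, adjusted p = 0.132), without SjSS replicate 1 (-1.61, adjusted p = 0.0736) and without SjSS replicate 3 (-1.98, adjusted p = 0.0547). With ACs it was 2.43-fold higher in SjSS (1.28 ± 0.34, adjusted p = 0.00456), and this value crossed the fold threshold without AC replicate 1 of B6 (1.43) or AC replicate 1 (1.38) or 2 (1.34) of SjSS, and with DESeq2 (1.31). With CpG it was 7.02-fold lower in SjSS (-2.81 ± 0.22, adjusted p = 6.15e-08).

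Whether a response differs between strains was tested by the interaction. For ACs this takes in any difference between the thymocytes given to each strain. For the AC response, 1 member was called, *Lcn2* (7.53% of all genes in either direction, and 4.76% higher), and 2 were significant, both with the larger response in SjSS (19.6% of all genes). The *Lcn2* responses differed by 3.09 ± 0.62 (adjusted p = 0.000605), and over the fits that left out 1 sample the value ran from 2.43, without B6 control replicate 3, to 3.37 (adjusted p at most 0.00344). The *Ftl1* responses differed by 0.27 ± 0.10 (adjusted p = 0.0455), which no longer passed in 10 of the fits that left out 1 sample (adjusted p = 0.0533 to 0.131), among them those without SjSS AC replicate 2 (0.21, adjusted p = 0.131) and without B6 control replicate 3 (0.24, adjusted p = 0.103). For *Hmox1* the AC responses differed by -0.17 ± 0.13 (adjusted p = 0.331) and for *Slc40a1* by -0.20 ± 0.17 (adjusted p = 0.399). *Blvrb* gave 0.26 ± 0.11 (adjusted p = 0.076), which passed without SjSS control replicate 3 (0.34, adjusted p = 0.0184) or SjSS AC replicate 1 (0.31, adjusted p = 0.047), with the replicate block within strain (adjusted p = 0.0198) and with DESeq2 (0.28, adjusted p = 0.0453). For the CpG response, edgeR called 0 members (0.614% of all genes), and 0 were significant (5.85% of all genes). In this comparison 2 members had an unadjusted p under 0.05 (*Slc40a1* and *Blvrb*), and DESeq2 gave 0 past the adjusted threshold.

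*Slc11a1* lies in the stretch of chromosome 1 from 70 to 100 Mb, where strain differences were frequent. Of the 202 genes tested there, 31 (15.3%) were called between control SjSS and control B6, against 2.01% of all genes. The stretch was chosen with earlier results of these data known, so these shares are a description. B6 mice are known to carry a loss-of-function allele of *Slc11a1*, and the gene is a known candidate of the *Idd5* region of NOD mice. Its own transcript level differed between the strains by 0.01 ± 0.05 in control (adjusted p = 0.933), by 0.11 ± 0.05 with ACs (adjusted p = 0.086) and by -0.11 ± 0.05 with CpG (adjusted p = 0.15). DESeq2 put both past the threshold, at 0.13 with ACs (adjusted p = 0.0121) and -0.13 with CpG (adjusted p = 0.028), and its size factors in edgeR did so with ACs (adjusted p = 0.0378). Gene counts do not show which allele was transcribed.

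The other genes of iron and heme metabolism were taken from a list of 59 by role, of which 53 had a row and 49 passed the filter. Of the 49, 11 rose and 10 fell with ACs in B6, where 20.0% of all genes rose and 18.3% fell. With ACs in SjSS 16 rose and 16 fell (28.6% and 29.4% of all genes). With CpG 13 rose and 22 fell in B6 (28.1% and 29.8%), and 15 rose and 22 fell in SjSS (27.8% and 26.4%). Their median log2 fold change was -0.05 and 0.08 with ACs in B6 and SjSS, and -0.27 and -0.15 with CpG, beside 0.00, -0.02, -0.04 and -0.01 over all genes. Between control strains 5 were higher and 9 lower in SjSS (9.04% and 10.6% of all genes). The AC interaction was significantly above 0 for 19 and below 0 for 6 (19.6% and 18.3% of all genes).

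Among the transcription factors, *Spic*, the factor of red pulp and other iron-recycling macrophages, rose in all 4 responses and had the largest AC response of the 49 in each strain. It read 7.85, 8.93 and 6.43 CPM in control B6, 55.1, 66.2 and 62.9 CPM with ACs and 92.0, 85.9 and 74.8 CPM with CpG. SjSS samples stood at 2.84, 2.75 and 3.01 CPM in control, 29.3, 33.3 and 35.0 CPM with ACs and 28.5, 26.5 and 41.3 CPM with CpG. The log2 fold changes were 2.99 ± 0.15 and 3.50 ± 0.17 with ACs in B6 and SjSS (adjusted p = 2.63e-11 and 1.18e-12), and 3.45 ± 0.15 and 3.48 ± 0.17 with CpG (adjusted p = 4.34e-13 and 2.52e-12). It was lower in SjSS by -1.42 ± 0.17 in control (adjusted p = 1.54e-05) and by -1.39 ± 0.13 with CpG (adjusted p = 7.69e-07). With ACs the SjSS samples also stood below the B6 samples, at 29.3 to 35.0 against 55.1 to 66.2 CPM.

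*Bach1*, the heme-sensing repressor of *Hmox1*, and *Mafk*, a small Maf protein that pairs with it or with NRF2, responded to ACs differently in the strains. *Bach1* read 209, 225 and 214 CPM in control B6 and 191, 199 and 203 CPM with ACs, against 232, 220 and 187 CPM in control SjSS and 586, 532 and 556 CPM with ACs. *Mafk* read 40.4, 42.6 and 43.9 CPM in control B6 and 52.4, 53.1 and 52.3 CPM with ACs, against 41.6, 45.2 and 35.2 CPM in control SjSS and 209, 222 and 232 CPM with ACs. The AC treated SjSS samples stood apart from all others for both genes. The responses differed by 1.52 ± 0.10 for *Bach1* (adjusted p = 1.31e-09) and by 2.13 ± 0.10 for *Mafk* (adjusted p = 1.79e-11). *Nfe2l2*, which encodes NRF2, an activator of *Hmox1* and ferritin genes, rose with ACs by 0.25 ± 0.06 in B6 (adjusted p = 0.00342) and by 0.75 ± 0.06 in SjSS (adjusted p = 4.27e-09). *Hif1a* was called higher with ACs in SjSS (1.40 ± 0.11, adjusted p = 1.19e-09), and its mean in B6 went from 202 to 335 CPM. *Epas1* was called lower with ACs in B6 (-1.55 ± 0.17, adjusted p = 9.07e-07) and with CpG in SjSS (-1.42 ± 0.18, adjusted p = 1.35e-06). Its mean went from 6.06 to 2.98 CPM with ACs in SjSS and from 6.94 to 3.29 CPM with CpG in B6.

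Genes for iron outside the ferritin shell also moved. *Cp* (ceruloplasmin, the ferroxidase that works with ferroportin) rose with CpG by 3.00 ± 0.12 in B6 and 2.50 ± 0.12 in SjSS (adjusted p = 2.29e-13 and 3.28e-12), and with ACs by 1.34 ± 0.12 in SjSS (adjusted p = 1.25e-08). With ACs in B6 its value was 0.01. *Hp* (haptoglobin, which binds free hemoglobin) rose with CpG by 4.24 ± 0.20 and 3.61 ± 0.21 (adjusted p = 1.31e-12 and 3.1e-11). *Slc11a2* (DMT1), an iron importer of the same NRAMP family as *Slc11a1*, and *Slc39a14* (ZIP14) rose with CpG, by 1.42 ± 0.05 and 1.29 ± 0.11 in SjSS (adjusted p = 4.19e-14 and 1.41e-08). In B6 *Slc39a14* rose with CpG by 1.79 ± 0.11 (adjusted p = 8.84e-11). *Slc11a2* read 99.7 to 104 CPM in control B6 and 248 to 256 CPM with CpG. With ACs in B6 *Slc11a2* and *Slc39a14* rose by 0.44 ± 0.05 and 0.67 ± 0.11 (adjusted p = 9.99e-07 and 0.0001). In SjSS *Slc11a2* read 66.4 to 74.7 CPM in control and 159 to 169 CPM with ACs. The 3′ UTR of *Slc11a2* holds an IRE-like hairpin with 1 mismatch, chr15:100395153-100395181 on the minus strand, shown beside those of *Tfrc* for comparison:
Slc11a2 3′ UTR: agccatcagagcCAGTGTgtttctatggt
*Trf*, which encodes transferrin, the ligand of *Tfrc*, read 788, 718 and 702 CPM in control B6 and 201, 181 and 162 CPM with ACs, a fall of -2.02 ± 0.10 (adjusted p = 2.91e-11). In SjSS BMDMs *Trf* was at 763, 916 and 747 CPM in control and 796, 952 and 816 CPM with ACs, and the responses differed by 2.10 ± 0.14 (adjusted p = 1.03e-09). *Steap3*, a ferrireductase of the transferrin cycle, was higher in SjSS in every condition, by 1.72 ± 0.12 in control (adjusted p = 1.54e-08), 1.59 ± 0.12 with ACs (adjusted p = 3.18e-09) and 2.03 ± 0.13 with CpG (adjusted p = 3.32e-09). *Cd163*, the receptor for the haptoglobin-hemoglobin complex, was lower in control SjSS (-1.60 ± 0.26, adjusted p = 0.000316), at 1.42 to 1.83 CPM against 4.80 to 5.32 CPM in B6.

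**Figure D5:**
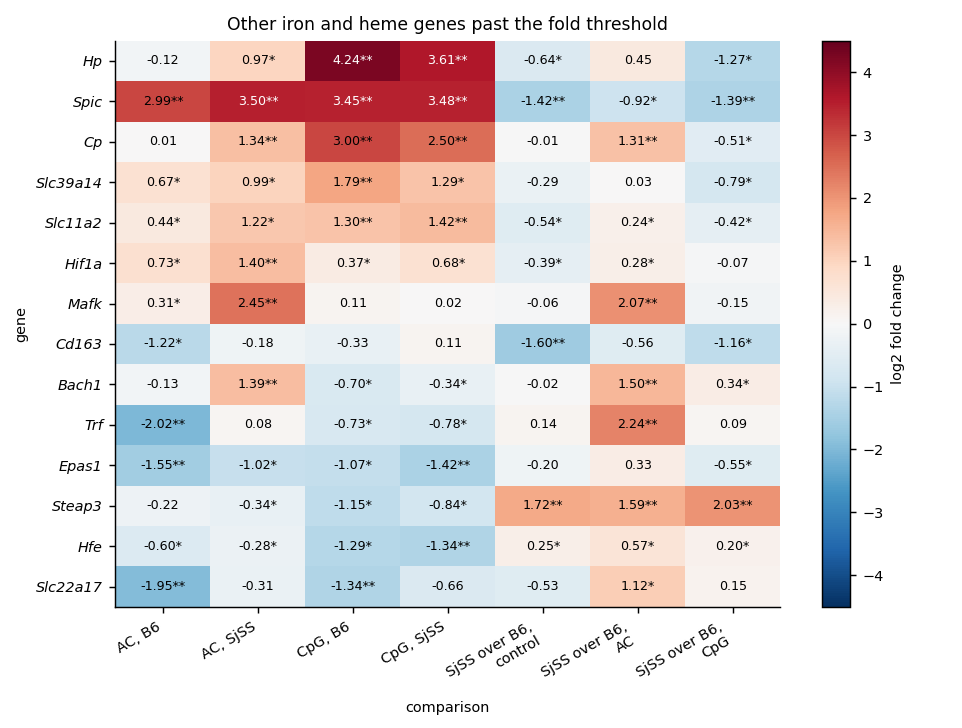
Log2 fold changes of the 14 other iron and heme genes that were called in at least 1 of the 7 comparisons shown. One asterisk marks an adjusted p under 0.05 and a pair marks genes also past the fold threshold. *Spic* rose in all 4 responses (2.99 to 3.50), *Hp* and *Cp* rose most with CpG, and *Bach1*, *Mafk* and *Trf* were higher in SjSS with ACs.

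Of the genes for iron sensing, *Aco1* (IRP1) fell with ACs in SjSS by -0.26 ± 0.05 (adjusted p = 9.25e-05), and *Ireb2* (IRP2) rose with CpG in SjSS by 0.45 ± 0.10 (adjusted p = 0.00109). *Fbxl5*, whose protein marks IRP2 for degradation, rose with CpG by 0.83 ± 0.05 in B6 (adjusted p = 1.38e-10) and by 0.53 ± 0.05 in SjSS (adjusted p = 9.37e-08). Of 8 genes of heme synthesis tested, 0 rose and 2 fell with ACs in B6, 1 rose and 6 fell with ACs in SjSS, 1 rose and 4 fell with CpG in B6, and 1 rose and 5 fell with CpG in SjSS, beside the shares of all genes given above. The gene that rose with ACs in SjSS and with CpG in B6 was *Alas1*, the first enzyme of the pathway, at 0.22 ± 0.07 (adjusted p = 0.0104) and 0.55 ± 0.07 (adjusted p = 1.01e-06), and *Urod* fell by -0.41 ± 0.08 (adjusted p = 0.000382) and -0.97 ± 0.09 (adjusted p = 1.07e-08). *Hmox2* and *Blvra*, which encode heme oxygenase 2 and biliverdin reductase A, fell with CpG in both strains. In B6 they fell by -0.35 ± 0.06 and -0.48 ± 0.05 (adjusted p = 2.55e-05 and 2.31e-07). With ACs the mean of *Hmox2* went from 132 to 174 CPM in SjSS and from 131 to 132 CPM in B6. The mean of *Blvra* went from 64.2 to 59.8 CPM and from 73.7 to 70.3 CPM. *Slc22a17*, named as a receptor of lipocalin 2, stood at 1.09, 1.46 and 0.622 CPM in control B6 and fell with ACs there by -1.95 ± 0.40 (adjusted p = 0.000628). It also fell with CpG in B6 (-1.34 ± 0.38, adjusted p = 0.00539), the 1 gene of the 49 called lower in that comparison, where 0 were called with the replicate number as a block within strain, without control replicate 2 of B6 or without CpG replicate 3 of B6.

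The genes whose log2 CPM followed each member most closely over the 18 samples were found by Pearson correlation, given as a description. For *Hmox1* they were *Prr13* (0.960), *Olr1* (0.945) and *Sqstm1* (0.944), for *Slc48a1* *Zswim4* (0.949), *Pacsin2* (0.945) and *Pspc1* (0.939), and for *Blvrb* *Gnb2* (0.974), *Xpnpep1* (0.961) and *Eml2* (0.956). For *Slc40a1* they were *Idh1* (0.985), *Acot13* (0.984) and *Abcg3* (0.981), for *Slc11a1* *Procr* (0.991), *Lrrc59* (0.984) and *Ampd3* (0.984), and for *Lcn2* *Pilra* (0.987), *Pilrb1* (0.985) and *Ebi3* (0.983). For *Fth1* they were *Adprh* (0.973), *1700047I17Rik2* (0.971) and *Clec4d* (0.970). *Ftl1* and *Tfrc*, which responded least, had weaker neighbours, *Atp6v1g1* (0.888) and *mt-Nd4l* (0.912) first. Among the members themselves the closest pairs were *Fth1* with *Slc11a1* (0.96), *Lcn2* with *Blvrb* (0.95) and *Hmox1* with *Slc48a1* (0.94), and *Slc40a1* ran opposite to *Lcn2* (-0.87) and *Slc11a1* (-0.82). *Hmox1* and *Lcn2* had a correlation of 0.18.

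RefSeq promoter windows (GRCm38.p6, 250 bases before to 50 after a start) were at hand for *Fth1*, *Ftl1*, *Slc11a1*, *Tfrc*, *Lcn2* and *Blvrb*. They were searched on both strands for the antioxidant response element TGACNNNGC and the NF-kB motif, GGGA and CC with 4 bases between them. The first matched no member window and 12.4% of all 32851 windows. The second matched *Fth1*, 86 bases before the start on the opposite strand at chr19:9982560-9982569, and 20.7% of all windows. These are matches of letters in short windows and say nothing of enhancers further away.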

How the data were processed

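RNA-seq gene counts of 18 BMDM samples were analysed, 3 in each of 6 groups taken from the sample labels. Alignment by the authors used STAR against mm10, and Partek's E/M method gave the deposited estimated counts, one per gene and sample and without normalization (41.1% were not whole at a tolerance of 1e-06). These were rounded. E/M division can shift reads between near-identical genes such as the ferritin copies. Genes were filtered with filterByExpr in edgeR 4.0.16 (R 4.3.3), TMM scaling was applied, and a quasi-likelihood model of the 6 group means took in all 18 samples. P values of the 11 comparisons were adjusted by the Benjamini-Hochberg method over 15789 genes. Log2 CPM for correlations used a prior count of 2. Gene coordinates are the deposited table's, in which the start of *Fth1* and *Slc48a1* differs from GENCODE M21. Alternatives were DESeq2 1.42.0, DESeq2 size factors or upper-quartile scaling in edgeR, no filter, a filter of 10 counts in 3 samples, a linear fold of 1.3 or none, the compared groups only, a replicate block, each sample left out, and ferritin rows summed with their pseudogene rows. The replicate block joined same-numbered samples over both strains, and another block did so within each strain. The rule for named genes covered the 9 members and the 3 nearest patterns of each member. It also covered a list of other iron and heme genes by role. Of these, the 5 largest called in a comparison and examples of some roles were named. Examples that were not called were chosen after their values were seen. The members and lists were chosen with earlier results of these data known. Deviations from the group means of same-numbered samples correlated at 0.02 to 0.26 within a strain (18 of 18 pairs above 0), against -0.25 to 0.07 for different numbers (6 of 36 above 0), and at -0.09 to 0.06 between strains. Deviations of the 3 samples of a group sum to 0, so the different-number values are not independent of the same-number values. All 3 same-number correlations exceeded 0.1 only for control and CpG treated B6 (0.26, 0.26 and 0.14). Each strain had 3 mice, and the sources used here do not tie sample numbers to them. The fits were tested on simulated counts, and depth was 30688336 to 57139662 counts in a sample.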

Additional observations from a re-analysis of the deposited data

Results flagged for a closer look

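For 2 members the AC response differed between strains by the interaction test of edgeR. *Lcn2* rose with ACs in SjSS by 3.20 and stood at 0.11 in B6, a difference of 3.09 ± 0.62 SE (adjusted p = 0.000605). Control SjSS samples, the base of this response, held 9 to 16 counts of *Lcn2*. *Ftl1* rose by 0.36 in SjSS and stood at 0.09 in B6, a difference of 0.27 ± 0.10 (adjusted p = 0.0455). With the pseudogene rows added the *Ftl1* difference was 0.25 (adjusted p = 0.0511), and with upper-quartile scaling it was 0.19 (adjusted p = 0.165).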

How the results depend on the processing

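Of 1489 recomputed log2 fold changes of members, 1400 kept their direction and their side of the adjusted p threshold, 38 lost significance, 32 gained it, and 19 changed sign, 0 of which were significant as reported. With the fold threshold removed, members called higher and lower numbered 4 and 1 (AC, B6), 7 and 1 (AC, SjSS), 6 and 1 (CpG, either strain), 3 lower in AC against CpG in B6, 4 and 2 in SjSS, 5 lower in control SjSS, 1 and 3 with ACs, 4 lower with CpG, and 2 in the AC interaction. With a linear fold of 1.3 they numbered 3 and 1, 5 and 1, and 6 higher with CpG in either strain, 2 lower and 2 higher in AC against CpG in B6 and SjSS, 3 lower in control SjSS, 1 and 3 with ACs, and 2 lower with CpG. *Hmox1* was close to the fold threshold in AC against CpG in SjSS, so members called higher went from 1 to 0 with upper-quartile scaling and ran from 0 to 1 over the fits that left out 1 sample. Members called lower in control SjSS ran from 0 to 1 over such fits. For *Lcn2* in SjSS against B6 with ACs, members called higher went from 0 to 1 with DESeq2, with its size factors in edgeR and in some fits that left out 1 sample. Upper-quartile scaling moved the median of all genes from -0.02 to -0.13 for ACs in SjSS, and it turned the AC interactions of *Fth1* (-0.01), *Tfrc* (-0.03) and *Slc48a1* (-0.01). Summing ferritin rows turned *Ftl1* to -0.04 with CpG in SjSS and to 0.12 between strains with ACs. Leaving out 1 sample turned values near 0: *Lcn2* with ACs in B6 (-0.17 to 0.77), *Ftl1* (at 0.01) and *Tfrc* (-0.14 to 0.03) with CpG in B6, *Slc11a1* between control strains (-0.02 and -0.01), *Ftl1* between strains with ACs (-0.08 to 0.02), *Slc40a1* between strains with CpG (-0.27 to 0.07), *Tfrc* in the AC interaction (-0.07 to 0.16) and *Slc48a1* in the CpG interaction (-0.12 to 0.01). The replicate block ended no member's call and gave 4 of 99 values significance that they lacked, and the block within strain 3 of 72. For example, *Hmox1* between control strains had -0.23 (adjusted p = 0.0102) with the replicate block. That block joins different mice of the 2 strains by number alone, so it pairs nothing in a strain difference. Within strains same-numbered samples deviated together weakly, and beyond control and CpG treated B6 the correlations did not all reach 0.1. Other causes were not tested.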
